A study of Mus musculus with 2 samples.

Results

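The cells described here are barcodes of dissociated mouse brain selected on their monocyte transcripts, 90 of the 11312 barcodes kept in 2 single-cell RNA-seq libraries. They numbered 54 of 5333 in the Fit2-WT library and 36 of 5979 in the Fit2-Mut library. A barcode was counted when it had at least 1000 UMIs (unique molecular identifiers, 1 per captured transcript), at least 500 genes and at most 10% mitochondrial UMIs. It also needed at least 4 UMIs summed over Ccr2, Ly6c2, Plac8, Chil3 and Ms4a4c, and at least 2 over the myeloid genes Csf1r and Lyz2. Barcodes with more than 1 UMI of T, NK or B cell markers (Cd3e, Cd3d, Cd3g, Ncr1, Klrb1c, Cd79a) or of neutrophil markers (Retnlg, Cxcr2, Ly6g) were left out. So were those with more than 2 UMIs of microglial markers (P2ry12, Siglech, Fcrls) or of border-associated macrophage markers (Mrc1, Pf4, Cd163). Because measured transcripts chose the cells, the levels of these genes are given as a description only.

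Both libraries were made from whole brain of APP-KI mice at 6 months of age, which carry a knock-in that models Alzheimer's disease, 1 library with the wild-type Fit2 genotype (APP-KI Fit2-WT) and 1 with the mutant (APP-KI Fit2-Mut). APP-KI is shared by both groups, and no library without it is used here. The series asks how brain cells differ when macrophage Fit2 is disrupted. The promoter or Cre line behind that disruption, the altered part of the gene and the number of animals behind a library are not given in the sources used here. With 1 library per genotype no test between genotypes is possible, and no p-value is given. Intervals in parentheses are exact 95% intervals for counting error only. They take each UMI as independent and do not cover differences between animals, dissociations or captures.

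Monocytes are made in bone marrow and circulate in blood, and a brain that was not cleared of blood also yields them from its vessels. Classical monocytes of the mouse carry Ly6C and the chemokine receptor CCR2 and can enter inflamed tissue. Non-classical monocytes lose Ly6C, depend on the nuclear receptor Nr4a1 and patrol the inside of blood vessels. Dendritic cells are a separate antigen-presenting lineage that shares several of these transcripts. Fit2 (gene Fitm2) is a protein of the endoplasmic reticulum that helps package triglyceride into lipid droplets.

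In total 52491901 UMIs were counted for Fit2-WT and 63234140 for Fit2-Mut. Monocyte-rule barcodes had median depths of 6948 UMIs (2804 to 25530) in the wild-type and 6876 (2143 to 20047) in the mutant library. Depth was less even within the sides set out below. Wild-type and mutant medians were 8045.5 and 8785 for classical, 5441 and 4171 for non-classical, and 13773 and 8711 for dendritic barcodes. Raw counts and UMI limits within a side are therefore not at equal depth. Over all monocyte-rule barcodes the UMIs summed to 441675 and 248454. Levels below are CPM (UMIs of a gene per 1000000 UMIs in these sums), and ratios are Fit2-Mut over Fit2-WT. Free RNA was read from barcodes with 10 to 100 UMIs. Among kept barcodes 10 sequences occurred in both libraries; none of them was a monocyte-rule barcode in both, and 1 Fit2-Mut member had a sequence also kept in Fit2-WT.

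The promoters of 1 rule gene and 1 interferon-stimulated gene are shown because the first is a rule gene that marks classical cells and the second is among the genes lowest in Fit2-Mut. Both run from 250 bases before to 50 bases after a RefSeq start of GRCm38.p6. Ly6c2, a GPI-anchored surface protein, lies on chromosome 15 at 75108158 to 75111970 on the minus strand. The window is chr15:75111922-75112221 on the minus strand, and the capitals mark GAGGAAGT, a form of the PU.1 motif. PU.1 is the transcription factor of the myeloid lineage.
Ly6c2: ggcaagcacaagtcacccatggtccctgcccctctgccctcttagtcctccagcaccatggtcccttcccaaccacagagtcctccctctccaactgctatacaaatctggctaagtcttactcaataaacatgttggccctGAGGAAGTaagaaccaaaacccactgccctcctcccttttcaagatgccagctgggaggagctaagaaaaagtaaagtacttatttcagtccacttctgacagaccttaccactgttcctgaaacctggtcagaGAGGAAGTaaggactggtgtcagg
Isg15, a ubiquitin-like protein induced by type I interferon, lies on chromosome 4 at 156199424 to 156200818 on the minus strand. Its window is chr4:156200769-156201068 on the minus strand, and the capitals mark a run of 3 overlapping matches to GAAA, any 2 bases and GAAA, the core of the interferon-stimulated response element.
Isg15: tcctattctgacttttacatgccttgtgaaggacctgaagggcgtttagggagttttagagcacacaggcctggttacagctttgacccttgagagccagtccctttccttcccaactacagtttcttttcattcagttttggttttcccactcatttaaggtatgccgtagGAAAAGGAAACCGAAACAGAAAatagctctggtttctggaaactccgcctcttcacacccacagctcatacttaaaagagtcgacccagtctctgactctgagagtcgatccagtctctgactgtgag
Searched on both strands in windows of this length, this interferon motif was found in 13 of the 22 interferon-stimulated genes with a RefSeq window (59.1%), against 3.99% of 27025 genes. GAGGAAGT was found in 1 of the 5 rule genes, Ly6c2, against 3.69% of all genes. TTGCGNAA (C/EBP) and AAAGGTCA (NR4A) were found in none of the rule genes, the classical list, the non-classical list or the interferon list, against 0.918% and 1.70% of all genes. A match describes letters in the window and not a bound site.

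Plac8 was the most abundant and most evenly spread of the 5 rule genes. This small cysteine-rich protein of myeloid cells lies on chromosome 5 at 100553725 to 100572245, minus strand. It had 2004 CPM in Fit2-WT (885 UMIs in 53 of 54 barcodes) and 1952 CPM in Fit2-Mut (485 UMIs in 35 of 36). Thinned to 1000 UMIs per barcode, 79.6% and 77.8% of members held a Plac8 UMI. The thinned shares were at most 0.182% of microglia and 4.23% of neutrophils, whose median depths were 10462 and 12126 UMIs and 3337 and 3263 UMIs before thinning. Microglia were themselves chosen for few UMIs of the 5 rule genes, so their low share was fixed by that choice and is no separate check.

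The other 4 rule genes were held by fewer cells. Ccr2, the receptor for the monocyte-attracting chemokine Ccl2, lies on chromosome 9 at 124101950 to 124113557, plus strand. It had 485 CPM in Fit2-WT (41 barcodes) and 596 in Fit2-Mut (24 barcodes). Ly6c2 had 401 CPM in 16 barcodes and 310 CPM in 14, and a single Fit2-WT barcode held 74 of its 177 UMIs there. Chil3, a secreted chitinase-like protein (chromosome 3, 106147554 to 106167564, minus strand), had 419 CPM in 19 barcodes and 330 CPM in 9. Ms4a4c, a membrane protein of the MS4A family (chromosome 19, 11404770 to 11427246, plus strand), had 245 CPM in 31 barcodes and 205 CPM in 18. None of these 4 was as widespread as Plac8 in either library.

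Ly6c2 has a close neighbour, Ly6c1, that brain endothelium expresses. In barcodes with at least 4 UMIs of the endothelial gene Cldn5 (450 and 365), Ly6c1 had 7986 and 6382 UMIs and Ly6c2 had 1 and 2. In the monocyte-rule barcodes the counts were 1 and 1 for Ly6c1 and 177 and 77 for Ly6c2. The deposited counts thus kept the paralogs apart.

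At the threshold, 10 Fit2-WT and 7 Fit2-Mut barcodes had a marker sum of 3 and met every other limit, and 2 and 5 members sat at a sum of 4. Those at 3 had median depths of 3855 and 6780 UMIs, and those at 4 had 4263 and 3468. In all, 160 and 176 kept barcodes had a sum of 4 or more. The limit on lymphocyte markers alone left out 4 and 7, that on neutrophil markers 6 and 8, that on microglial markers 4 and 6, and that on border-associated macrophage markers 2 and 3.

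Defining genes of other brain immune cells were at lower summed levels in the members than in free RNA. The rule limited markers of each of these classes, so these levels are partly fixed by the choice of members and are no separate check of it. Of 17 neutrophil genes 7 were at 0 in Fit2-WT and 10 in Fit2-Mut, and the list summed to 138 and 205 CPM against 366 and 316 in free RNA and 164135 and 148563 in neutrophils. No member held more than 1 UMI of S100a8 and S100a9 together. Of 12 microglia genes 4 and 2 were at 0, and the list summed to 288 and 278 CPM against 1409 and 1675 in free RNA and 11455 and 12068 in microglia. Of 12 border-associated macrophage genes 9 were at 0 in each library, and of 14 T, NK and B cell genes 12 and 11. These lists summed to 74.7 and 44.3 CPM and to 145 and 113 CPM, against 89.8 and 90.1 and 169 and 167 in free RNA.

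The label held only in part, since 12 of the 90 barcodes carried dendritic cell genes. The 6 markers (Flt3, Cd209a, Zbtb46, Clec9a, Xcr1, Ccr7) were summed, and 6 barcodes of each library held at least 3 UMIs of them; the lowest such sums were 8 and 4, and none held exactly 3. These form the dendritic side. The other 78 were put on the classical side when Ly6c2, Chil3, F13a1 and Hp together exceeded Treml4, Ace, Ear2 and Adgre4, and otherwise on the non-classical side. The limits between sides were set after values had been seen, and sides are ranges along 2 sums, not cell types. Within 2-fold of equal sums lay 12 of 48 Fit2-WT and 6 of 30 Fit2-Mut barcodes.

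**Figure D1:**
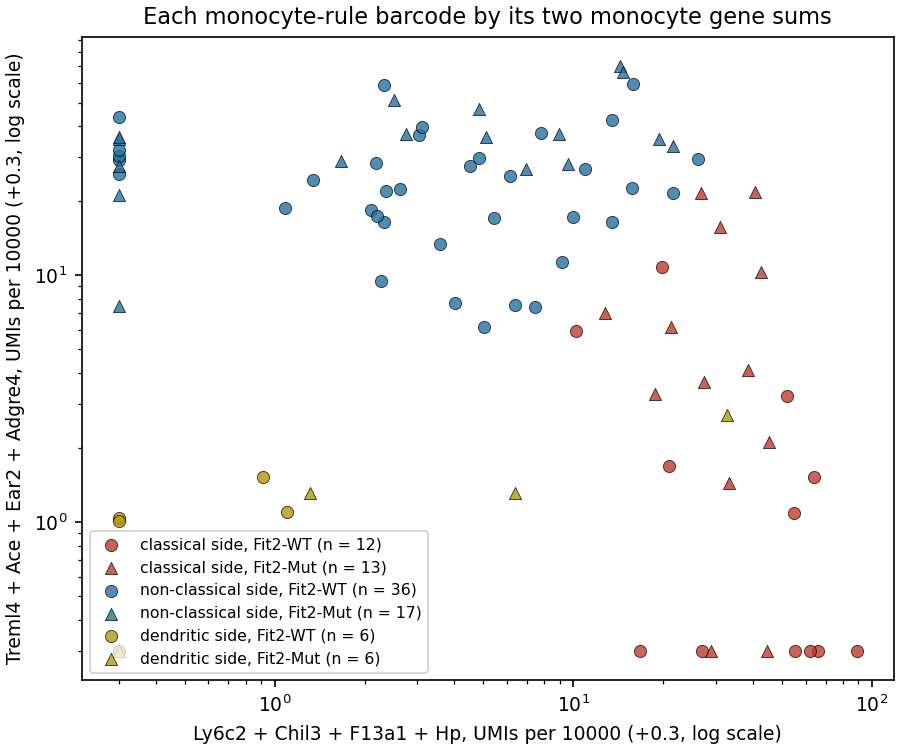
Each point is a monocyte-rule barcode, placed by the UMIs per 10000 of 4 classical genes (x axis, log scale) and 4 non-classical genes (y axis, log scale), with 0.3 added; circles are Fit2-WT, triangles Fit2-Mut, and colours give the side. Non-classical barcodes (36 and 17) fill the upper band, and classical barcodes (12 and 13) lie at the lower right.

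The non-classical side held most members of the Fit2-WT library, and fewer of the Fit2-Mut library. It held 36 barcodes in Fit2-WT (66.7% of members, 52.5 to 78.9) and 17 in Fit2-Mut (47.2%, 30.4 to 64.5). The classical side held 12 (22.2%, 12.04 to 35.6) and 13 (36.1%, 20.8 to 53.8). The dendritic side held 6 (11.1%, 4.19 to 22.6) and 6 (16.7%, 6.37 to 32.8). Each of these pairs of intervals overlaps.

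Over all kept barcodes, members were 1.01% of Fit2-WT (0.762 to 1.32) and 0.602% of Fit2-Mut (0.422 to 0.833), a ratio of 0.595 (0.379 to 0.923). The non-classical side was 0.675% (0.473 to 0.933) and 0.284% (0.166 to 0.455), a ratio of 0.421 (0.222 to 0.770). The classical side was 0.225% and 0.217%, a ratio of 0.966 (0.407 to 2.32). The dendritic side was 0.113% and 0.100%, a ratio of 0.892 (0.239 to 3.34). Among the side ratios only the non-classical interval excluded 1. The classical and dendritic intervals run from far below to far above 1 and also include 0.421. The lower member share in Fit2-Mut therefore cannot be placed on 1 side. The sides were cut after values were seen, and the 2 barcodes with equal sums, both Fit2-WT, counted as non-classical. Neutrophils, which also circulate, were 1.33% and 0.903% of kept barcodes, a ratio of 0.678 (0.467 to 0.980). Microglia, which do not, were 9.86% and 9.22% (0.934, 0.828 to 1.06). Haemoglobin genes, a sign of blood, summed to 1516 CPM of free RNA in Fit2-WT and 3102 CPM in Fit2-Mut, and the part of residual blood in these shares was not tested. Fewer captured cells and fewer cells in the tissue cannot be told apart. Among kept barcodes with a UMI of the leukocyte gene Ptprc the member shares were 5.47% and 3.17% (0.579, 0.366 to 0.906).

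The sides also differed in genes that did not place them. Only genes past 2-fold the same way in both libraries were counted, so agreement between the libraries was fixed by that rule. Genes that placed the barcodes were not left out of the counts. Of 1701 genes with at least 20 UMIs in each library, 67 (3.94%) were at least 2-fold higher and 147 (8.64%) at least 2-fold lower on the classical than on the non-classical side in both. Of 14 classical genes outside the rule that could be read, 7 were higher in both libraries and none lower, F13a1 and Hp having helped to place the barcodes. Of 15 non-classical genes 14 were lower in both and none higher, among them the 4 that placed the barcodes.

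Fn1 (fibronectin, an adhesive matrix protein) stood at 704 CPM (Fit2-WT) and 804 CPM (Fit2-Mut) in classical barcodes, against 44.9 and 39.2 on the non-classical side. The Fn1 ratio of the sides was 15.7 (8.33 to 32.7) and 20.5 (6.81 to 101). S100a10, a calcium-binding-family partner of annexin A2, had 956 and 576 CPM against 53.0 and 0. With 3 counts set in place of 0, it was at least 14.7-fold higher in Fit2-Mut. Vim, the intermediate filament vimentin, had 3356 and 2108 CPM against 514 and 170. Ifi30, a lysosomal thiol reductase of antigen processing, had 1165 and 779 CPM against 253 and 118. The calcium-binding gene S100a4 had 2191 and 2328 CPM against 816 and 641, and Ccr2 1035 and 855 against 294 and 170. Fos, an immediate early gene that tissue dissociation can raise, had 4991 and 3758 CPM against 1089 and 889. Capg, Cd14, Gas7, Stxbp6, Crip1, Ltb4r1 and Wfdc17 completed the 12 genes that led this side.

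Fabp4, a carrier of fatty acids, led the non-classical genes with 506 CPM (Fit2-WT) and 575 CPM (Fit2-Mut). In classical barcodes it had 0 and 8.46 CPM, so that it was at least 19.4-fold higher on the non-classical side in Fit2-WT against 3 counts. Cd36, a scavenger receptor for oxidised lipid, had 518 and 928 CPM against 0 and 84.6. Pparg, the nuclear receptor that induces both of these in macrophages, had 290 and 667 CPM against 26.1 and 42.3. Cd300e, an activating receptor of monocytes, had 179 and 275 CPM and none on the classical side of either library. Fcgr4, the Fc receptor known from non-classical monocytes, had 249 and 366 CPM against 8.69 and 16.9. Tcf7l2, a Wnt pathway transcription factor, had 257 and 353 CPM against 26.1 and 42.3. Cyth3, Bcl2a1b, Fyn, Eno3, Bcl2a1d and Cd300ld also led this side; Bcl2a1b and Bcl2a1d are near-identical copies, so their split is uncertain.

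Nr4a1, the factor non-classical monocytes need, was less sharply divided. It had 877 and 1176 CPM on the non-classical side and 504 and 897 on the classical side. Its classical over non-classical ratio was 0.575 (0.423 to 0.772) in Fit2-WT and 0.763 (0.570 to 1.02) in Fit2-Mut. Nr4a1 is also an immediate early gene. Apoe, the lipid carrier, had 3825 and 5451 CPM on the non-classical side and 1922 and 1871 on the classical side, with 5594 and 6141 CPM in free RNA.

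On the dendritic side, MHC class II transcripts were far above those of the other sides, although none was among the 6 markers that set this side. Cd74, the class II invariant chain, had 22354 and 31163 CPM. H2-Eb1, a class II beta chain, had 8163 and 8585 CPM, against at most 595 CPM on the other sides. Ciita, the coactivator that switches class II genes on, had 270 and 223 CPM against at most 13.1. The lectin-like receptors Klrk1 and Klrd1 had 246 and 242 CPM and 221 and 149 CPM, with no UMI on the other sides. Cldn1, Ccnd1, H2-Ob, Cd24a, H2-Oa, Kctd14, Phf11a and H2-Ab1 were the other leading genes. Lyz2, the lysozyme of monocytes, had 1056 and 9013 CPM there, against 28440 and 27662 on the classical side.

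The dendritic barcodes of the libraries were not alike. Their median depth also differed, at 13773 UMIs for the wild-type and 8711 for the mutant library. Raw UMI and barcode counts in this paragraph are not corrected for that. Clec9a and Xcr1 mark the cross-presenting dendritic cells. Clec9a had 21 UMIs in 5 of 6 Fit2-WT barcodes and 4 UMIs in 2 of 6 Fit2-Mut barcodes, a level ratio of 0.288 (0.0720 to 0.855). Xcr1 had 19 UMIs in 4 Fit2-WT barcodes and 8 UMIs in 1 Fit2-Mut barcode. Wdfy4, needed for cross-presentation, had 1007 and 242 CPM (0.240, 0.123 to 0.434), and Cst3, abundant in dendritic cells, had 21802 and 10964 CPM (0.503, 0.457 to 0.552). The lectin Cd209a, by contrast, had 25 UMIs in 1 Fit2-WT barcode and 40 UMIs in 4 Fit2-Mut barcodes. Clec10a, another lectin, had 0 UMIs and 14 UMIs in 3 barcodes. A single Fit2-Mut barcode held 239 of the 485 Lyz2 UMIs of that side. That barcode had only 4 UMIs of the 6 dendritic markers, 16 of H2-Aa, and 27 UMIs of the 4 genes that set the classical side.

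**Figure D2:**
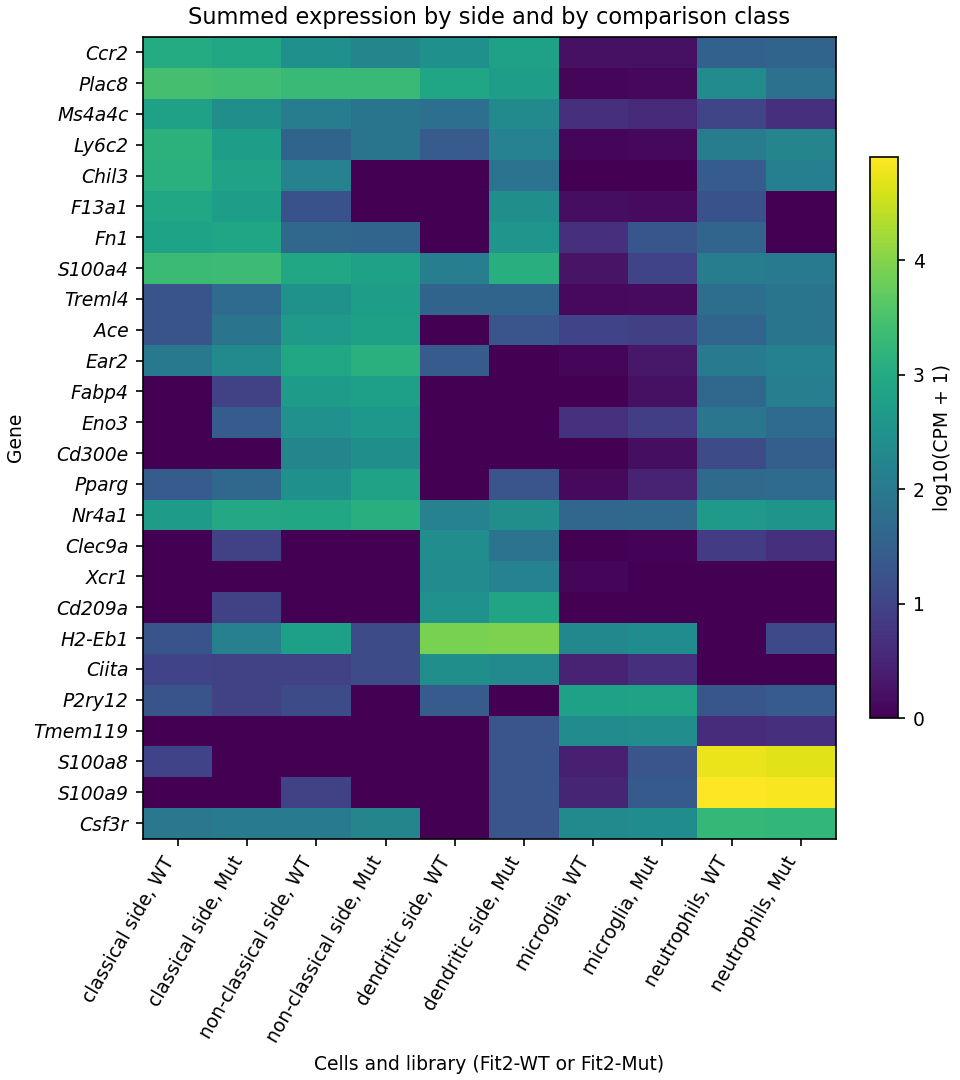
Summed expression as log10(CPM + 1) of 26 genes (rows) on the 3 sides of the monocyte-rule barcodes and in microglia and neutrophils of both libraries (columns). Plac8 and Ccr2 run through all 3 sides; Fn1 and Ly6c2 are brightest on the classical side, Fabp4 and Cd300e on the non-classical side, H2-Eb1 on the dendritic side, and S100a8 and S100a9 in neutrophils.

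Against the other myeloid classes of the same suspension the members were compared with microglia (526 and 551 barcodes), neutrophils (71 and 54) and border-associated macrophages (9 and 3, too few for a firm level). The 15 genes highest against all 3 were Ms4a4c, Plac8, Arhgef37, Zfyve9, Ptgds, S100a4, Cldn1, Fam49a, F10, Adgre4, Tmsb10, Klrd1, Clec4a1, Pex5l and Apoc2, of which Ms4a4c and Plac8 belong to the rule. F10, which encodes clotting factor X, had 86.0 and 96.6 CPM, against at most 12.96 CPM in microglia and neutrophils. Adgre4, an adhesion receptor of myeloid cells, had 391.7 and 467 CPM against at most 107. Apoc2, the cofactor of lipoprotein lipase, had 435 and 475 CPM against at most 122. S100a4 had 1046 and 1558 CPM against at most 120. Cldn1 and Klrd1 came from the dendritic side alone. Ptgds and Pex5l did not describe the members as a whole. In Fit2-WT a single barcode held 257 of 321 Ptgds UMIs, and another held 262 of 268 in Fit2-Mut, and Pex5l was in 3 and 4 barcodes.

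A few barcodes carried many transcripts of other brain cells. In Fit2-WT 1 member held 6611 of the 6871 UMIs of Ttr, the choroid plexus transport protein, among its 25530 UMIs. Scrublet called 2 Fit2-WT and 1 Fit2-Mut members doublets. Another Fit2-WT member held 50 of 51 UMIs of Prtn3, a granule protease of monocyte precursors, together with 20 of the 21 UMIs of the replication gene Rrm2 among 25378 UMIs. These barcodes were kept, and values that rest on them are marked below.

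The targeted gene could not be checked in these cells. Fitm2, on chromosome 2 at 163466379 to 163472629 (minus strand, 2 exons), had 0 UMIs in both libraries. A count of 0 allows up to 6.79 CPM in Fit2-WT and 12.1 CPM in Fit2-Mut (3 counts), and free RNA held 6.56 and 10.1 CPM. A loss of Fitm2 was therefore not detectable at this depth. A 3' tag could also lie outside the altered part of the gene. Its relative Fitm1 had 1 UMI and 0 UMIs.

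Of 4831 genes with at least 20 UMIs over both libraries, 685 were at least 1.5-fold higher in Fit2-Mut members (14.2%) and 590 at least 1.5-fold lower (12.2%), 1275 either way (26.4%). These counts are the background for every list below. The median log2 ratio over all 4831 genes was 0.03. Scaled by TMM (trimmed mean of M-values) it became -0.09, with 500 genes higher and 738 lower, so that the higher ones were 40.4% of calls rather than 53.7%. A log2 difference of about 0.1 between a list and zero therefore depends on the scaling.

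The genes highest in Fit2-Mut by the naming rule were led by Plcb1, which encodes phospholipase C beta 1, an enzyme of G protein signalling. The rule set a gene against free RNA only in the library where it was higher, so Plcb1 and Afdn passed that limit through Fit2-Mut. Plcb1 had 50 UMIs in 19 Fit2-WT members (113 CPM) and 138 UMIs in 17 Fit2-Mut members (555 CPM), a ratio of 4.91 (3.53 to 6.92). The ratio was 2.85 (1.85 to 4.51) on the classical and 6.56 (3.81 to 11.6) on the non-classical side. It rested on few cells, since 5 barcodes per library held 58.0% and 68.1% of its UMIs. Free RNA held 616 and 622 CPM of Plcb1, more than the members, and its part in the ratio was not tested. Tppp3, a tubulin-binding protein, had 65.7 and 209 CPM (3.19, 1.99 to 5.21), and was above 1 by interval on both of these sides (2.07, 1.11 to 4.01, and 2.91, 1.11 to 7.56). Thinned to 1000 UMIs per barcode, the ratio of Tppp3 was 1.2 (0.238 to 5.58) and that of Plcb1 3.64 (1.44 to 10.4). The side values of Plcb1 and Tppp3 come from the same UMIs that ranked these genes and are no separate support. Afdn, the junction scaffold afadin, had 20.4 and 84.5 CPM (4.15, 1.82 to 10.3), with 63.3 and 68.7 CPM in free RNA. Slpi, a secreted inhibitor of neutrophil proteases, had 31.7 and 101 CPM (3.17, 1.59 to 6.61). Traf1, an adaptor of TNF receptors, had 45.3 and 129 CPM (2.84, 1.58 to 5.25), and a ratio of 1.95 (0.971 to 3.95) without the dendritic side.

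The dendritic and classical makeup touched others of these 12. Clec10a (10.7, 3.11 to 56.5) and Cd209a (2.92, 1.73 to 5.003) came mainly from the dendritic side. Fn1 had 208 and 471 CPM over all members (2.26, 1.71 to 3.004) but a ratio of 1.14 (0.840 to 1.56) on the classical side and 0.874 (0.157 to 3.31) on the non-classical side. The share of members on the classical side was 22.2% and 36.1%, and its part in the Fn1 ratio was not tested. Dnajc21, Gas7, Tgm3 and Amz1, the other 4, had ratios from 2.99 to 4.74.

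The genes lowest in Fit2-Mut were led by Enpp2, the lysophospholipase autotaxin, with 969 and 129 CPM (0.133, 0.0898 to 0.191), and 1871 and 1768 CPM in free RNA. The Ttr-rich member held 398 of its 428 Fit2-WT UMIs, and without the members rich in transcripts of other brain cells (3 in Fit2-WT, 1 in Fit2-Mut) the ratio became 4.47. Romo1, a small mitochondrial membrane protein, was spread over more cells. It had 70 UMIs in 32 Fit2-WT members and 13 UMIs in 10 Fit2-Mut members, 158 and 52.3 CPM (0.330, 0.168 to 0.602), and was below 1 by interval on the classical (0.381, 0.155 to 0.855) and non-classical side (0.156, 0.0183 to 0.602). Free RNA held 168 and 153 CPM of Romo1, so that Romo1, like Enpp2, passed the free RNA limit through Fit2-WT. The sides hold the same UMIs that ranked Romo1, so their intervals are no separate support. Zc3h14, a poly(A)-binding protein, had 23 UMIs in 17 members and 2 UMIs in 1 (0.155, 0.0177 to 0.626). Acadl, a mitochondrial enzyme of fatty acid oxidation, had 86.0 and 24.2 CPM (0.281, 0.0970 to 0.669). Fabp5, which carries lipids inside cells, stood at 195 and 76.5 CPM (0.393, 0.226 to 0.651), with 84.9% of Fit2-WT UMIs in 5 members, and was at 1.17 after thinning to 1000 UMIs. Nr1h3, the oxysterol receptor LXR alpha, had 19 UMIs in 6 Fit2-WT members and 1 UMI in Fit2-Mut, all of them on the non-classical side. H2-Q7, a class I gene of the Qa region, had 72.5 and 16.1 CPM (0.222, 0.0571 to 0.627), and its counts share reads with close copies such as H2-Q6. Ifi205, Pafah1b3, Desi1, Isg15 and Fgd2 were the remaining 5, with ratios from 0.172 to 0.308.

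Of 18 interferon-stimulated genes with at least 20 UMIs none was at least 1.5-fold higher in Fit2-Mut members and 7 were at least 1.5-fold lower, against 14.2% and 12.2% of all genes. Their median log2 ratio was -0.44, whereas their summed level was 6016 CPM (Fit2-WT) and 5957 CPM (Fit2-Mut), with Ifitm3 the most abundant. The list lay lower on the classical side, with a median of -1.12 and 9 of 12 genes at least 1.5-fold lower, against 15.5% of 1949 genes there. On the non-classical side the median was -0.43 with 2 of 10 lower, against 17.8% of 2787 genes. Dendritic barcodes had a higher summed level in Fit2-Mut, with 2774 CPM in Fit2-WT and 5575 CPM in Fit2-Mut. Per dendritic barcode the medians without Ms4a4c were 18.2 and 60.7 UMIs per 10000. Without Ifitm3 as well they were 16.7 and 10.7, so the higher level rested on Ifitm3. All 18 planned or added settings left the median log2 ratio of the list below 0, from -1.12 to -0.25. The classical and non-classical sides above are among them. Depth limits of 500 or 2000 UMIs and the limit on S100a8 and S100a9 left the members unchanged. Their value was thus the reported one and is no separate check. Ms4a4c, a rule gene, is among the 18.

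Isg15 had 52 UMIs in 15 Fit2-WT members (118 CPM) and 9 UMIs in 6 Fit2-Mut members (36.2 CPM), a ratio of 0.308 (0.133 to 0.630). Without the rule's limits on microglial and border-associated macrophage markers the ratio was 0.666 (0.426 to 1.03). In classical barcodes it had 35 UMIs in 7 of 12 Fit2-WT barcodes and 1 UMI in 13 Fit2-Mut barcodes. A single Fit2-WT member held 18 of the 52 UMIs, and the next 5. Thinned to 1000 UMIs, 14.8% and 2.78% of members held Isg15, against 15.5% and 11.1% of neutrophils and 4.56% and 2.72% of microglia. Ifi27l2a, an interferon-induced mitochondrial protein, had 976 and 676 CPM (0.693, 0.576 to 0.830). Its UMIs per classical barcode ran from 6 to 46 with a median of 14 in Fit2-WT, and from 0 to 28 with a median of 2 in Fit2-Mut (level ratio 0.465, 0.359 to 0.597). Bst2, the antiviral tether tetherin, had 202 and 125 CPM (0.619, 0.398 to 0.941), and 0.275 (0.127 to 0.547) on the classical side. Irf7, the factor that amplifies interferon production, had 111 and 64.4 CPM (0.581, 0.308 to 1.04). The DNA-sensor family members Ifi209 and Ifi211 had 102 and 68.4 CPM and 115 and 68.4 CPM; their copies are close in sequence. Ifitm3 moved the other way with 3276 and 3993 CPM (1.22, 1.12 to 1.32).

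Summed per barcode without Ms4a4c and Ifitm3, classical barcodes held 8.28 to 122 interferon UMIs per 10000 in Fit2-WT with a median of 38.2, and 1.92 to 60.7 with a median of 10.7 in Fit2-Mut. Of the 13 Fit2-Mut barcodes 11 lay below the Fit2-WT median, and the groups overlapped. Non-classical barcodes had medians of 12.7 and 12.3, with overlapping ranges of 1.96 to 78.4 and 0 to 44.0. With Ifitm3, the most abundant gene of the list, kept in, classical medians were 103.5 (18.1 to 203) and 68.3 (30.6 to 109). Non-classical medians were then 50.5 and 46.8. In the other classes of the same libraries the list medians were -0.23 in microglia and -0.43 in neutrophils (log2), over 26 and 9 genes.

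In summed levels, MHC class II genes went in opposite directions on the classical and non-classical sides. Over all members the 7 genes had a median log2 ratio of 0.07, with none past 1.5-fold. On the non-classical side the median was -2.20, with 6 of 6 lower, against 17.8% of genes there. In classical barcodes it was 1.08, with 3 of 5 higher, against 20.2% of genes there. These levels rested on few barcodes. H2-Aa, a class II alpha chain, reached 10 UMIs in 5 of 36 non-classical barcodes in Fit2-WT (13.9%, 4.67 to 29.5) and 1 of 17 in Fit2-Mut (5.88%, 0.149 to 28.7). Among classical barcodes this was 0 of 12, which allows up to 26.5%, and 3 of 13 (23.1%, 5.04 to 53.8). The intervals of the libraries overlapped on both sides. The non-classical Fit2-WT barcodes with 36 and 49 H2-Aa UMIs and the Fit2-Mut one with 16 lay within 2-fold of equal sums. Their side is therefore uncertain. Cd74 had 921 UMIs on the non-classical side of Fit2-WT, with a median of 4 and a highest count of 209 per barcode, and 36 UMIs in Fit2-Mut. All 12 dendritic barcodes held at least 10 H2-Aa UMIs. Microglia of both libraries also carried H2-Aa, at 301 and 414 CPM, and neutrophils had 0 and 14.8 CPM.

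**Figure D3:**
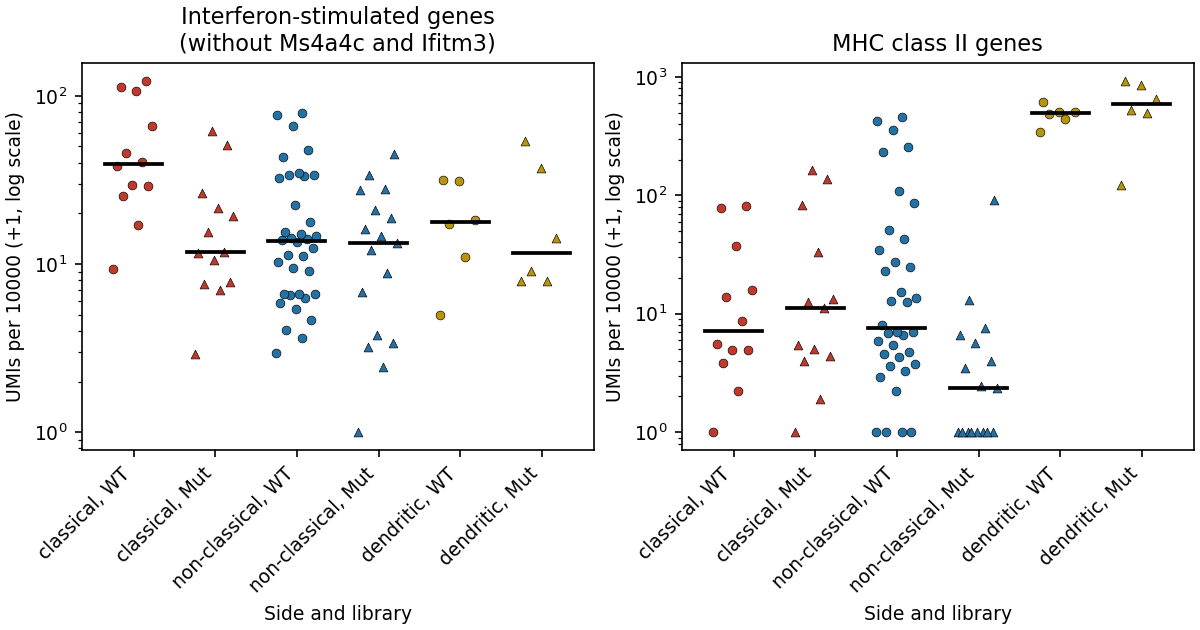
UMIs per 10000 (with 1 added, log scale) of interferon-stimulated genes without Ms4a4c and Ifitm3 (left) and of MHC class II genes (right), by side and library (x axis); each point is a barcode and each bar a median. Classical Fit2-WT barcodes have a median of 38.2 interferon UMIs per 10000 against 10.7 in Fit2-Mut, and class II UMIs are high in all dendritic barcodes and in a few others.

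Classical monocyte genes outside the rule differed in direction by side. Over all members 6 of 16 genes were at least 1.5-fold higher in Fit2-Mut and none lower, against 14.2% and 12.2% of all genes. Their median log2 ratio was 0.52. Ifitm6 had 335 and 608 CPM (1.81, 1.44 to 2.29), Mgst1 (a glutathione transferase) 170 and 334 (1.97, 1.42 to 2.73), Hp (haptoglobin) 518 and 801 (1.55, 1.27 to 1.88) and S100a4 1046 and 1558 (1.49, 1.30 to 1.71). Within the classical side the median was -0.06, with 4 of 16 at least 1.5-fold lower and none higher, against 15.5% and 20.2% of genes there. On the non-classical side it was -0.34, with 4 of 11 higher and 3 lower, against 19.7% and 17.8% of genes there. F13a1 and Hp, which helped to place the barcodes, are on this list. Summed over the list, dendritic barcodes had 1289 CPM (Fit2-WT) and 7898 CPM (Fit2-Mut). The latter rests in part on the Fit2-Mut barcode with only 4 dendritic UMIs. It held 27 UMIs of the 4 genes that set the classical side, and the next highest dendritic barcode held 6. Mgst1 had 417 and 406 CPM on the classical side and 110 and 379 CPM on the non-classical side.

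Non-classical genes did the reverse. Over all members the median of 16 genes was -0.09, with 3 lower and none higher, against 12.2% and 14.2% of all genes. On the non-classical side it was 0.45 with 5 of 16 higher and none lower, against 19.7% and 17.8% of genes there. On the classical side it was 0.96 with 5 of 7 higher, against 20.2% of genes there. Over all members Fabp4 had 281 and 181 CPM (0.645, 0.448 to 0.914), Pglyrp1, a bactericidal protein, 378 and 250 (0.660, 0.485 to 0.888), and Itgal, the alpha chain of the integrin LFA-1, 460 and 306 (0.666, 0.504 to 0.870). Within the non-classical side Treml4, a receptor that marks these cells, had 310 and 536 CPM (1.73, 1.15 to 2.56), and Ear2, an eosinophil-type ribonuclease with close copies, had 816 and 1294 (1.59, 1.23 to 2.03). The 4-gene non-classical sum that placed these barcodes ran from 5.88 to 58.9 UMIs per 10000 in Fit2-WT with a median of 23.2, and from 7.21 to 70.0 with a median of 35.3 in Fit2-Mut. For classical barcodes the 4-gene classical sum had medians of 53.3 (9.90 to 88.8) and 30.6 (12.4 to 45.1). All 13 Fit2-Mut values lay below the Fit2-WT median, although the ranges overlapped. These sums are the measure that the sides themselves were made from. Treml4 and Ear2 are among the 4 genes that placed the barcodes, and all 4 are among the 16. The within-side values of these genes and of the list are therefore not independent of the placing.

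Lipid droplet genes, the pathway of Fit2, were mostly at the edge of detection. Of 27 genes measured 8 had at least 20 UMIs, with a median log2 ratio of 0.24. Among these, 1 was at least 1.5-fold higher and none lower, against 14.2% and 12.2% of all genes. The higher gene was G0s2, an inhibitor of the lipase Pnpla2, with 47.5 and 72.4 CPM. Plin2, the coat protein of droplets, had 294 CPM (130 UMIs in 48 members) and 411 CPM (102 UMIs in 29 members), a ratio of 1.40 (1.07 to 1.82). The Plin2 ratio was 1.70 (1.05 to 2.82) on the classical and 1.68 (1.14 to 2.45) on the non-classical side. On the dendritic side 18 and 9 UMIs were counted (0.757). Soat1, which esterifies cholesterol, had 188 and 181 CPM, and Hsd17b11, a droplet-associated dehydrogenase, 77.0 and 84.5. Dgat1 and Dgat2, which make triglyceride, had 8 and 4 UMIs and 3 and 5 UMIs, and Pnpla2, the triglyceride lipase, 10 and 8. Among classical barcodes 3 genes could be read, with a median of -0.35.

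Macrophage differentiation genes, which rise as monocytes settle in tissue, were low in the members. The rule limited microglial and border-associated macrophage markers, so a low level is partly fixed by the choice of members. Of 12 genes with at least 20 UMIs, 5 were at least 1.5-fold lower in Fit2-Mut and 1 higher, against 12.2% and 14.2% of all genes. Their median log2 ratio was -0.49. This direction depended on the rule. The median was 1.31 without those marker limits and 0.25 with a marker sum of at least 3. C1qa, C1qb and C1qc, the chains of the complement starter C1q, had 81.5 and 36.2, 125 and 60.4, and 63.4 and 24.2 CPM. In Fit2-WT the highest member for each gene held 23 of 36, 35 of 55 and 20 of 28 of its UMIs, and free RNA held 559 and 653 CPM of C1qa. Adgre1 (F4/80) had 111 and 68.4 CPM (0.617, 0.333 to 1.09). The lysosomal protease Ctsd was the gene that was higher, with 149 and 229 CPM (1.54, 1.06 to 2.22) against 1703 and 2166 in free RNA. The median turned to 0.37 on the non-classical side. Spp1 and Arg1 had 4 and 0 UMIs and 0 and 0.

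**Figure D4:**
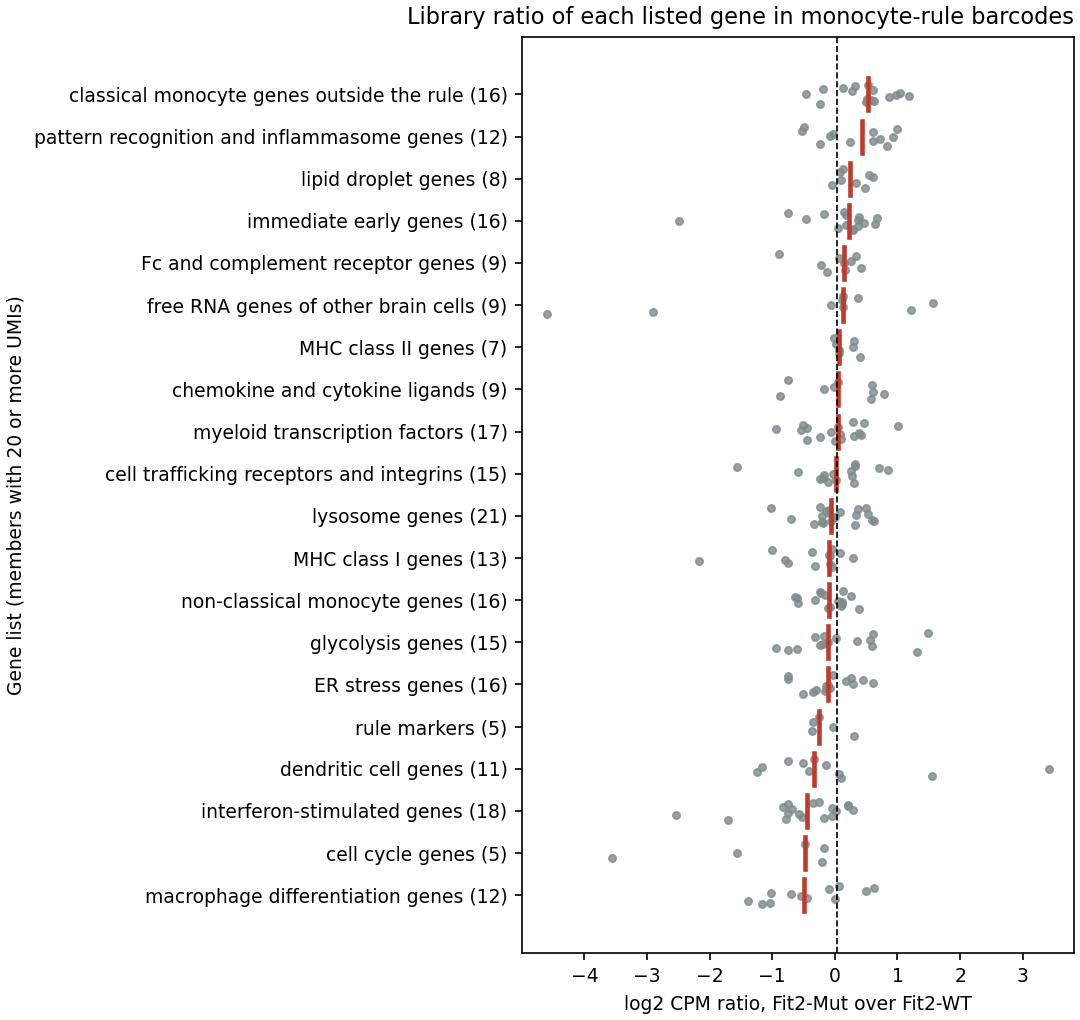
Log2 CPM ratio of Fit2-Mut over Fit2-WT (x axis) for each gene with at least 20 UMIs in 20 gene lists (y axis, with the number of genes); grey points are genes, red bars list medians, and the dashed line is the median over all 4831 genes (0.03). Interferon-stimulated genes centre at -0.44 and classical genes at 0.52.

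Receptors that sense microbes and damage had a median log2 ratio of 0.43 over all members. Of these, 6 of 12 were at least 1.5-fold higher and none lower, against 14.2% and 12.2% of all genes. Clec4e, the lectin Mincle, had 79.2 and 157 CPM (1.98, 1.22 to 3.22), with 102 and 314 CPM on the non-classical side. Nlrp3, the inflammasome sensor, had 14 and 15 UMIs, 31.7 and 60.4 CPM (1.91, 0.857 to 4.26), and Tlr2 19 and 19 UMIs (1.78, 0.891 to 3.55). Within the sides the medians were -0.06 and -0.02, over 6 and 7 genes. Il1b, the cytokine these receptors prime, had 496 and 491 CPM (0.990, 0.787 to 1.24). Its UMIs lay in 32 and 23 members.

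Of adhesion and homing genes, 2 of 15 were at least 1.5-fold higher and 2 lower, against 14.2% and 12.2% of all genes. Their median log2 ratio was 0.02. Cd44, the hyaluronan receptor, had 315 and 515 CPM (1.64, 1.28 to 2.10), with 2.27 (1.62 to 3.17) on the non-classical and 1.31 (0.870 to 1.996) on the classical side. Itgb7, the beta chain of a gut-homing integrin, had 143 and 258 CPM (1.81, 1.26 to 2.60). Itga4, the VLA-4 chain that binds brain endothelium, had 555 and 668 CPM (1.204, 0.983 to 1.47). Cx3cr1, the fractalkine receptor, had only 21 and 11 UMIs.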

How the data were processed

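Droplet 3' single-cell libraries of dissociated whole brain were built per the labels' protocols. The deposited files hold raw UMI counts per gene and barcode for all barcodes, with 32285 genes; reads were mapped to mm10 with Cell Ranger, 7.0.0 according to the submitters' processing notes, whereas the file headers give 7.1.0. Which annotation and intron setting were used is not given in the sources used here.

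Counts were read with Python 3.11.15, numpy 2.4.6, scipy 1.17.1 and pandas 2.3.3. Members were picked by the limits given in the report, and the same limits on depth gave the comparison classes. Microglia, neutrophils and border-associated macrophages needed at least 4 UMIs of their 3 markers and met limits on the markers of the other classes. For microglia and border-associated macrophages, but not neutrophils, these included a limit on the summed rule genes. Counts were summed per library and scaled to CPM. Ratio intervals are exact conditional ones, shares have Clopper-Pearson intervals, both at 95%, and a count of 0 is bounded by 3 counts. Genes needed at least 20 UMIs over both libraries. Doublets were not removed; Scrublet (Scanpy 1.11.5) called 124 and 155 of the kept barcodes (2.33% and 2.59%), 2 and 1 of them members. TMM factors came from edgeR 4.0.16 in R 4.3.3, used for scaling alone. Positions are from GENCODE on GRCm38, in which 32235 of 32285 gene identifiers matched, and promoter windows from RefSeq GRCm38.p6. The interval code was tested on simulated data.

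The 26 gene lists and the members were chosen with earlier results of these data known. Named genes are, by rule, list members with most UMIs or the largest ratios, the 12 highest and 12 lowest genes by the interval bound nearest 1 (ratio of at least 1.5, a UMI in at least 10% of members, CPM at least 0.5 times that of free RNA, both in the higher library, no ribosomal, mitochondrial, haemoglobin, sex-linked or unnamed genes), the 15 highest against the other classes by the smallest log2 of CPM + 10, the rule genes and Fitm2. The 12 leading genes of each side, and other genes given to describe a member or a side, were chosen after values were seen. Some items are not reported here. The listed genes Ly6a2, Clec7a, Ldaf1, Ddit3 and Aldoa were not analysed here.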

Additional observations from a re-analysis of the deposited data

Results flagged for a closer look

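Cell cycle genes and macrophage differentiation genes went one way in the monocyte-rule barcodes and the other way in another cell class of the same libraries; in neither case was the difference tested. Cell cycle genes had a median log2 ratio of -0.47 (-0.4748) over 5 genes in monocytes and 1.36 over 20 genes in microglia. In the monocytes 1 Fit2-WT member held 20 of 21 Rrm2 UMIs and all 14 Pclaf UMIs fell in 1 barcode. Macrophage differentiation genes had a median of -0.49 (-0.4943) over 12 genes in monocytes and 0.34 over 9 genes in neutrophils. Without the rule's microglial and border-associated macrophage limits the monocyte medians were 1.31 for these genes and 0.092 for cell cycle genes. C1qa had 22.7 and 77.4 CPM in neutrophils, against 559 and 653 CPM in free RNA.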

How the results depend on the processing

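No paired analysis was possible because each genotype has 1 library. The member share ratio stayed below 1 under all 11 alternatives, from 0.472 (marker sum of at least 6) to 0.743 (0.5003 to 1.10, no microglial or border-associated macrophage limits); the limit on S100a8 and S100a9 left out no member, so its value is the reported one. The 1275 genes past 1.5-fold became 317 with at least 50 UMIs, 4535 with 1 UMI in each library and 418 at a fold of 2, since each changes which genes count. For the values below the cause was not tested. With a marker sum of 3 the median log2 ratio of macrophage differentiation genes was 0.25 and of class II genes 0.64. Without the microglial and border-associated limits these were 1.31 and 0.38, classical genes -0.060, non-classical genes -0.59, cell cycle genes 0.092 and Fgd2 (ratio) 1.09. There the ratio intervals of Isg15 (0.666, 0.426 to 1.03), H2-Q7 (0.597, 0.321 to 1.08), Gas7 (1.32, 0.838 to 2.11), Slpi (1.85, 0.926 to 3.85) and Tgm3 (2.52, 0.992 to 7.18) included 1, and Fn1 was at 1.34 and Plcb1 at 2.92. With cells weighted equally, non-classical genes were at 0.18 and interferon genes at -0.73, and Fabp5 after thinning to 1000 UMIs at a ratio of 1.17.

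The following were added after seeing the data. Without the dendritic side class II genes were at -0.84 and Ifi205 at a ratio of 1.85. Without members rich in transcripts of other brain cells Enpp2 had a ratio of 4.47. On the classical side alone classical genes were at -0.059, non-classical at 0.96, pattern recognition at -0.063, class II at 1.08, interferon at -1.12, lipid droplet at -0.35, and Enpp2 at a ratio of 22.4. On the non-classical side alone classical genes were at -0.34, non-classical at 0.45, dendritic at 0.40, macrophage differentiation at 0.37, pattern recognition at -0.02 and class II at -2.20, with ratios of 0.0 for Clec10a and 0.874 for Fn1. Few UMIs per gene and sides of 6 to 36 barcodes limit all of these values.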

Other observations

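Glycolysis and its regulators were mixed. Of 15 genes 4 were at least 1.5-fold higher and 3 lower in Fit2-Mut members, against 14.2% and 12.2% of all genes. Their median log2 ratio was -0.11. Hif1a, the oxygen-sensing factor, had 21 UMIs in 13 Fit2-WT members (47.5 CPM) and 33 UMIs in 19 Fit2-Mut members (133 CPM), a ratio of 2.79 (1.57 to 5.08), and 3.74 (1.61 to 8.85) on the non-classical side; free RNA held 174 and 166 CPM. Hk1, a hexokinase, had 22.6 and 56.4 CPM (2.49, 1.03 to 6.26), and Eno1, an enolase, 245 and 362 (1.48, 1.11 to 1.98). Gpi1, the second enzyme of the pathway, was lower with 317 and 209 CPM (0.660, 0.471 to 0.914). Gapdh had 915 and 805 CPM (0.880, 0.739 to 1.05).

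The MHC class I list had its median at -0.09, with 4 of 13 at least 1.5-fold lower and none higher. Over all genes 12.2% were lower and 14.2% higher, which is the background for each list count in this paragraph. Psmb9, an immunoproteasome subunit, had 226 and 113 CPM (0.498, 0.315 to 0.763), and 0.275 (0.0541 to 0.872) on the non-classical side. B2m, the light chain of class I, had 1791 and 1731 CPM (0.966, 0.857 to 1.09). Of 17 myeloid transcription factors 1 was higher and 1 lower (median 0.04). The lineage factor Spi1 (PU.1) had 661 and 664 CPM (1.01, 0.825 to 1.22), Cebpb 1125 and 1501 (1.33, 1.16 to 1.53) and Klf2 1309 and 1111 (0.849, 0.733 to 0.981). Among chemokine genes (median 0.04, 3 of 9 higher and 2 lower) Ccl6 had 437 and 753 CPM (1.72, 1.40 to 2.12), against 1016 and 1223 in microglia, and Ccl9 129 and 197 (1.53, 1.02 to 2.28). Fc and complement receptors had a median of 0.14, with Fcer1g, the shared Fc receptor signalling chain, at 2889 and 3184 CPM. Lysosome genes had a median of -0.06 (2 of 21 higher, 2 lower), ER stress genes -0.12 (1 of 16 higher, 2 lower) and immediate early genes 0.23 (2 of 16 higher, 2 lower). Zfp36, which destabilises cytokine mRNA, had 734 and 1175 CPM (1.60, 1.36 to 1.88), but was lower on the non-classical side (0.494, 0.317 to 0.744) and higher on the dendritic side (7.39, 4.77 to 11.9). In the same list, the heat-shock gene Hspa1a had 498 and 298 CPM (0.598, 0.453 to 0.782). No haemoglobin gene reached 20 UMIs in the members. Of 8 granule genes of monocyte precursors 2 could be read, Prtn3 being the lower. The 15 genes of other brain cells that mark free RNA summed to 32071 and 18643 CPM in members and 91314 and 90351 CPM in free RNA, with a median log2 ratio of 0.12. The Ttr-rich Fit2-WT member held 6611 of the 14165 UMIs behind the first of these sums.

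Pparg was higher within the non-classical barcodes of Fit2-Mut, with 71 UMIs in 24 of 36 and 51 UMIs in 13 of 17 barcodes (290 and 667 CPM; 2.30, 1.57 to 3.35). A split this far inside the data was chosen after its values were seen.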
